A study of Mus musculus with 4 samples.

Results

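Genes of complement, blood coagulation and the protease inhibitors of plasma were examined in regenerating mouse liver after an siRNA against Orm1. They were 54 named genes, most of them encoding proteins that hepatocytes secrete into blood. A gene counted as measured when it had at least 1 probe set with that single gene symbol in the platform's annotation, and its value was the mean of its probe sets. This gave 51 of the 10923 genes measured in the deposited values, 43 from 1 probe set and 8 from several, 69 probe sets in all. C3, Cfd and Cpb2 were not analysed here.

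RNA came from the liver of C57BL6/J mice, all male and between 6 and 13 weeks old. All mice had 1 injection of siRNA with Invivofectamine 3.0, a lipid reagent that carries siRNA into liver cells, and 3 days later lost 40% of the liver by partial hepatectomy (PH), after which the remaining hepatocytes divide. Livers were measured 48 hours after PH, so that operation, reagent and an siRNA are common to both groups. The siControl group (2 arrays) had a control siRNA and the siOrm group (2 arrays) an siRNA against Orm1, the gene of a plasma protein of the acute phase, orosomucoid. The labels describe both siOrm arrays as Orm knockdown and place them in 1 group, but their titles end in 1 and 2 and could also be read as siRNAs against Orm1 and Orm2. The arrays are treated here as replicates, and each difference is a mean over them. Livers without siRNA or without PH were not analysed here. Nothing in the labels says that the arrays of a group came from separate mice, so any p-value here rests on the spread between these samples alone, and that spread may be technical.

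Complement is a cascade of plasma proteases. It starts from the C1 complex on antibodies, from mannose-binding lectins on sugars, or from spontaneous turnover of C3, and it ends with a pore of terminal components in a target membrane. Coagulation is a second protease cascade that ends with thrombin cutting fibrinogen to fibrin, and plasmin dissolves the clot. Serpins and inter-alpha-trypsin inhibitors hold these proteases in check. Hepatocytes make most of these proteins, while C1q and properdin come mainly from macrophages and other myeloid cells. Several of the hepatocyte genes, the fibrinogen chains among them, belong to the acute phase response to interleukin 6.

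Every value below is a log2 signal relative to the median of the 4 arrays for that probe set, as the table was deposited, or a difference of group means of such values, siOrm minus siControl, with base 2 assumed. Because the median of 4 values is the midpoint of the middle pair, the arrays in the middle often show mirrored values such as 0.01 and -0.01. The centring hides signal levels. The stored digits give a coarse view of them, since logarithms of 8 or more held in single precision can differ only by whole multiples of a fixed step, which values of lower logarithm can also meet by chance. All 4 values were such multiples (within 0.05 of a step) in 58 of the 69 probe sets (84.1%), against 36.2% of all 18852 probe sets. The share was 19 of 20 for hepatocyte markers and 0 of 8 for lymphocyte markers. All probe sets of the coagulation factors, the fibrinogen chains, the anticoagulants and the membrane attack components were on that step, while of the 6 probe sets of C1qa, C1qb, C1qc and Cfp 2 were.

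The labels were checked on the orosomucoid genes. Orm1 read 0.02 and 0.19 in siControl against -0.24 and -0.02 in siOrm, a difference of -0.23 (95% interval -0.60 to 0.14, limma adjusted p = 0.994). Its paralogs Orm2 and Orm3 differed by -1.08 and -0.91 (limma adjusted p = 0.994 for both). The sizes of the differences moved with single arrays. Without siControl replicate 2 they were -0.14 for Orm1, -0.71 for Orm2 and -0.39 for Orm3. Without siControl replicate 1 Orm3 was at -1.43, and without siOrm replicate 1 Orm1 and Orm2 were at -0.12 and -0.69. All kept their sign, but each gene was highest in siControl replicate 2. In the main fit, with no array left out, none of these genes had a limma adjusted p under 0.05. The fits with an array left out are given here by size only, since they leave a group with a single array. The check therefore does not establish a knockdown of Orm1 in these arrays. The arrays of the siControl group were the more unlike pair. Over all genes the median distance between them was 0.20, against 0.13 between the siOrm arrays. Marker genes of Kupffer cells and other macrophages were highest in siControl replicate 2, where their median was 0.57. It was -0.18 in siControl replicate 1 and -0.01 and 0.03 in the siOrm arrays. The neutrophil genes S100a8 and S100a9 stood at 2.75 and 1.95 in that array, against 0.16 and 0.10 in siControl replicate 1. Neutrophil markers as a list did not share this, with medians of 0.10 in siControl replicate 1 and 0.08 in siControl replicate 2. Where a printed difference of over 0.1 moved by over 1.5 times without siControl replicate 2, that value is given too.

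The complement, coagulation and inhibitor genes differed little between the groups. None of the 51 passed the test over all genes (limma, Benjamini-Hochberg adjusted p under 0.05), as was so for 0.00% of all genes, and the smallest adjusted p among them was 0.994. At an unadjusted p under 0.05 there was 1 gene, C8g, where 4.76% of all genes reached that level. The median difference was 0.03, against 0.01 over all genes, and 40 of the 51 differences (78.4%) were within 0.2 on either side of 0, against 72.6% of all genes. The differences ran from -0.62 for C6 to 0.69 for Serpina6.

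Missing the threshold does not show that a gene was the same in both groups, and the intervals say what sizes these arrays leave possible. The 95% interval of limma lay within 0.5 on either side of 0 for 27 of the 51 genes (52.9%, against 48.5% of all genes). It lay within 1, which is a 2-fold change, for 49 (96.1%, against 92.7%). The exceptions were C6 (-1.46 to 0.23) and Serpina6 (-0.65 to 2.02). The arrays of the groups overlapped for 43 genes. The siOrm pair was wholly above the siControl pair for 6 genes (11.8%), where 17.0% of all genes were so, and wholly below it for 2 (3.92%), where 15.3% were. Leaving out each array in turn kept the sign of 12 of the differences, 6 of them higher and 6 lower in siOrm (23.5%, against 46.5% of all genes). An exact two-sided permutation test of a single gene cannot give a p below 0.333 with 2 arrays against 2.

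**Figure D1:**
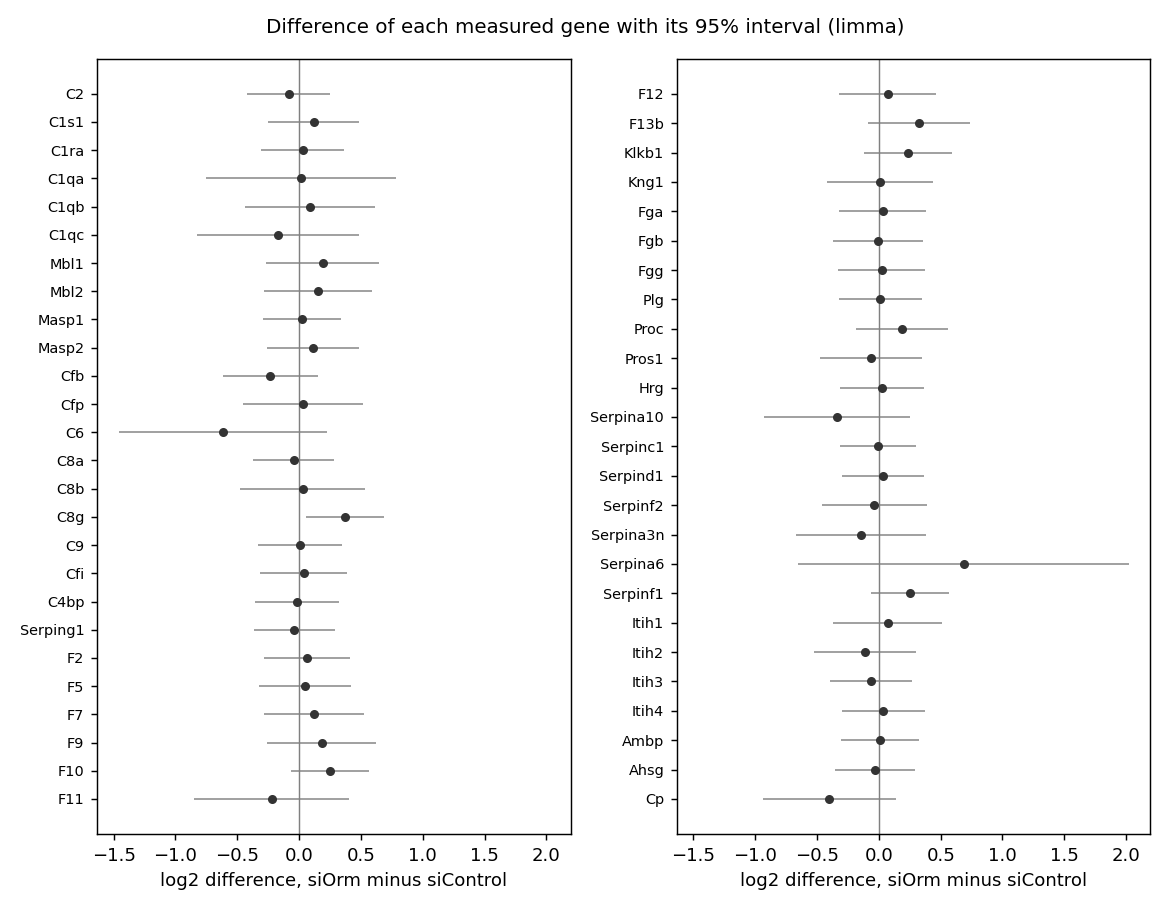
Each point is the difference of a gene on the log2 scale (horizontal axis), siOrm minus siControl, and each bar its 95% interval from limma with 2 arrays a group; genes run by role from complement (left, top) to other inhibitors (right, bottom). The interval of C8g, from 0.05 to 0.69, is the one that leaves out 0, and those of C6 and Serpina6 are the ones that reach past 1 on either side.

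The genes that start complement had a median difference of 0.06 (10 measured of 10 listed), and all 10 overlapped between the groups. Mbl1, a mannose-binding lectin, had the largest difference, at 0.06 and -0.33 in siControl and -0.06 and 0.16 in siOrm, or 0.19 with a standard error (SE) of 0.18. Its siControl replicate 2 was the lowest of the 4 arrays, and without that array the difference was -0.01. Mbl2, the other mannose-binding lectin, had a similar pattern, at 0.05 and -0.36 against -0.02 and 0.02, or 0.15, and -0.05 without siControl replicate 2. Masp2, the protease that the lectins activate, differed by 0.11, and by -0.03 without siControl replicate 2, its lowest array at -0.25. In all 3 of these lectin pathway genes siControl replicate 1 lay with the siOrm arrays.

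Masp1, a second protease of the lectin complex, differed by 0.02 over 5 probe sets, whose own differences ran from -0.15 to 0.28. Only 1 of its probe sets was on the step of the higher log values, and they did not share a pattern over the arrays. C1ra and C1s1, the proteases of the C1 complex and neighbours on their chromosome, differed by 0.03 and 0.12, and C1s1 by 0.24 without siControl replicate 2. C2, which C1s cleaves, differed by -0.08 and was highest in siControl replicate 1 at 0.17.

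The 3 chains of C1q, the part of C1 that binds antibody, gave the largest gap between the siControl arrays in this group. C1qa stood at -0.48 and 0.45 in siControl and at 0.06 and -0.06 in siOrm. C1qb stood at -0.38 and 0.19 against -0.01 and 0.01, and C1qc at -0.22 and 0.56 against -0.03 and 0.03. In each of these genes siControl replicate 1 was lowest and siControl replicate 2 highest, with both siOrm arrays between them. The group differences were 0.01, 0.09 and -0.17 (SE 0.31, 0.21 and 0.26). They turned with the array left out, to 0.48, 0.38 and 0.22 without siControl replicate 2 and to -0.45, -0.19 and -0.56 without siControl replicate 1.

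Cfp, which encodes properdin, the stabiliser of the alternative pathway, followed the same order, at -0.28 and 0.21 against -0.06 and 0.06. Macrophage markers moved with these 4 genes in part. Of 11 measured of 12 listed, 9 were highest in siControl replicate 2 and 7 lowest in siControl replicate 1. Both held for 5 (Cd5l, Cd68, Csf1r, Lyz2 and Mrc1), as for the C1q chains. Over all 11 markers the range was -0.60 to 0.25 and -0.10 to 1.97 for replicates 1 and 2 of siControl. For those of siOrm it was -0.25 to 0.16 and -0.77 to 0.30. The scavenger receptors Marco and Cd163 had the widest ranges but were lowest in siOrm replicate 2, Marco with 0.25 and 1.97 against -0.25 and -0.38, and Cd163 with -0.09 and 0.99 against 0.09 and -0.77. The order of the C1q chains was not particular to macrophage markers. It held for 4 of 8 endothelial markers, 4 of 8 stellate cell markers and 1076 of all 10923 genes. The part of cell content in the C1q and Cfp values was not tested. In whole liver, fewer cells of a type and less RNA per cell cannot be told apart.

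**Figure D2:**
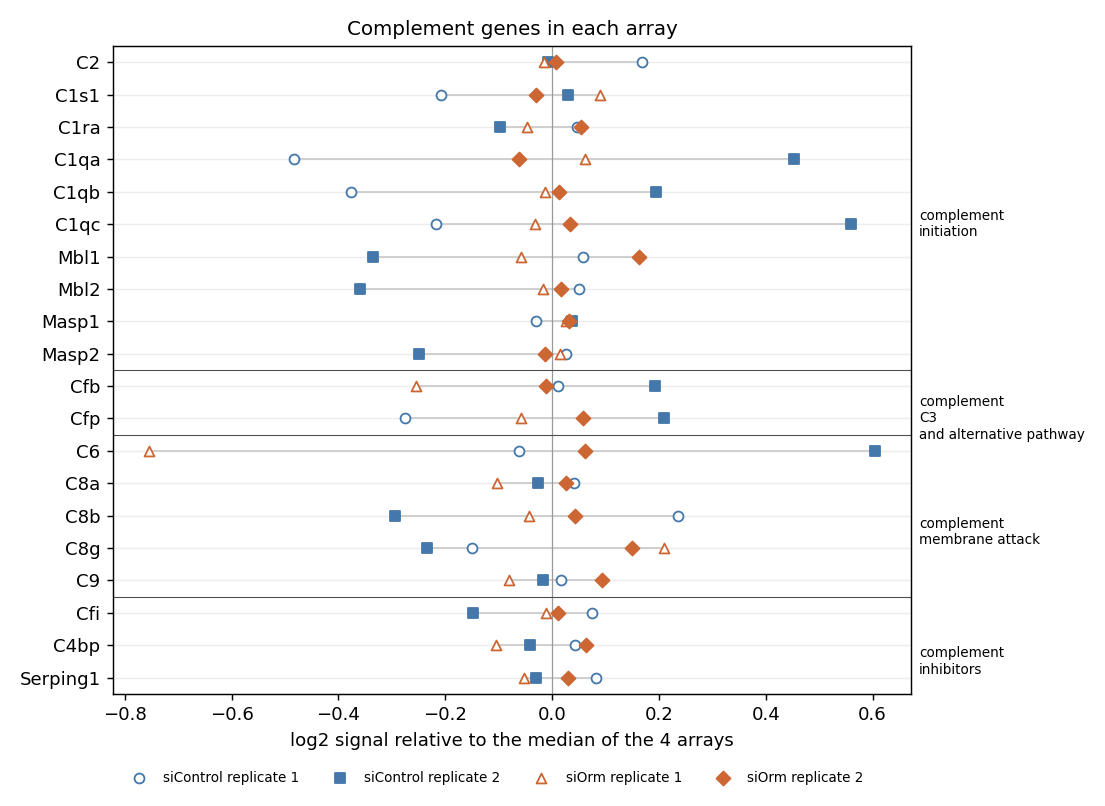
Log2 signal relative to the median of the 4 arrays (horizontal axis) for the measured complement genes, grouped by role, with 1 symbol for each array and a grey line over their range. The C1q chains and Cfp run from siControl replicate 1 (lowest) to siControl replicate 2 (highest), Mbl1, Mbl2 and Masp2 have siControl replicate 2 lowest, and C6 has the widest range.

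Cfb, factor B of the alternative pathway and an acute phase gene, was 1 of the 2 genes whose siOrm pair lay wholly below the siControl pair. It stood at 0.01 and 0.19 in siControl and at -0.26 and -0.01 in siOrm, a difference of -0.23 (SE 0.15, limma adjusted p = 0.994). The middle arrays, siControl replicate 1 and siOrm replicate 2, were 0.02 apart, and the difference shrank to -0.11 when siOrm replicate 1 was left out and to -0.14 when siControl replicate 2 was. The arrays had the same order for Orm1. C2, which lies next to Cfb on the chromosome, did not share it.

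Of the membrane attack genes 5 were measured of 5, with a median difference of 0.01. C8g encodes the gamma chain of C8 and was the one gene of the 51 with an unadjusted p under 0.05. It stood at -0.15 and -0.23 in siControl and at 0.21 and 0.15 in siOrm, a difference of 0.37 (SE 0.13, 95% interval 0.05 to 0.69, limma adjusted p = 0.994). The lower siOrm array was at 0.15 and the higher siControl array at -0.15, and the difference stayed between 0.33 and 0.41 with each array left out in turn. Its single probe set is of a kind that can match several transcripts. C8a and C8b, the chains with which it forms C8 and neighbours of each other on another chromosome, differed by -0.045 and 0.03. C8a stood at 0.04 and -0.03 against -0.10 and 0.03, and C8b at 0.24 and -0.29 against -0.04 and 0.04. The 3 chains of 1 protein therefore did not share an order of arrays.

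C6, the component that joins C5b before C8, had the lowest difference of all. It stood at -0.06 and 0.60 in siControl and at -0.75 and 0.06 in siOrm, or -0.62 (SE 0.34, limma adjusted p = 0.994). siOrm replicate 1 was far below the others and siControl replicate 2 far above, while the remaining arrays crossed the group line. The difference was -0.28 without siControl replicate 2, -0.21 without siOrm replicate 1 and -0.39 after quantile normalization. C9, which forms the wall of the pore, differed by 0.01, with arrays at 0.02 and -0.02 against -0.08 and 0.09.

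The 3 inhibitors of complement had small differences. Cfi, the protease that inactivates C3b and C4b, differed by 0.04 (0.07 and -0.15 against -0.01 and 0.01). C4bp, a cofactor of Cfi, differed by -0.02 (0.04 and -0.04 against -0.10 and 0.06). Serping1, the C1 inhibitor, differed by -0.04 (0.08 and -0.03 against -0.05 and 0.03). None of the 3 had an array further than 0.15 from the median, and their intervals were all within 0.5 on either side of 0.

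The coagulation and contact factors had the largest median difference among the role lists with more than 2 genes, 0.10 over 10 genes measured of 10, with 9 of the differences above 0. That median was 0.24 without siControl replicate 1 and -0.04 without siControl replicate 2. In 9 of the 10 genes siControl replicate 2 was the lowest array (90%), where it was lowest for 38.9% of all genes. The exception was F11, at 0.02 and -0.02 against 0.14 and -0.59, with siOrm replicate 2 lowest. Its difference was -0.22, and 0.14 without that array. The list had array medians of 0.04 and -0.22 for siControl against 0.05 and -0.01 for siOrm.

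F13b, which encodes the carrier subunit of the fibrin-crosslinking factor XIII, had the largest difference of the factors. It stood at -0.06 and -0.42 in siControl and at 0.11 and 0.06 in siOrm, or 0.32 (SE 0.17, limma adjusted p = 0.994), and at 0.14 without siControl replicate 2. Both siOrm arrays were above both siControl arrays. Klkb1, plasma prekallikrein of the contact system, was separated in the same way, at -0.06 and -0.29 against 0.06 and 0.06, or 0.23, and 0.11 without siControl replicate 2.

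F10, the protease that turns prothrombin into thrombin, did not depend on siControl replicate 2. It stood at -0.13 and -0.14 in siControl and at 0.14 and 0.09 in siOrm, a difference of 0.25 (SE 0.13, 95% interval -0.06 to 0.56, limma adjusted p = 0.994), and between 0.22 and 0.28 with each array left out in turn. Its 3 probe sets were not alike. A pair of them gave 0.37 and 0.30 with all siOrm values above all siControl values, and the third gave 0.07 with siControl replicate 2 lowest at -0.13.

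F10 is one of the vitamin K-dependent clotting proteins, with F2, F7, F9, Proc and Pros1. These 6 genes had a median difference of 0.15, with 5 above 0, 2 separated upwards and 0 downwards, where 17.0% and 15.3% of all genes were. siControl replicate 2 was lowest in 5 of them, and without it their median was -0.03. F2, prothrombin, stood at 0.04 and -0.17 against 0.003 and -0.003. F9, the factor missing in haemophilia B, stood at 0.04 and -0.37 against 0.07 and -0.04, and F7, which starts clotting with tissue factor, at 0.05 and -0.29 against 0.05 and -0.05. In these 3 genes siControl replicate 1 lay with the siOrm arrays, and without siControl replicate 2 the differences were -0.04 for F2, -0.02 for F9 and -0.05 for F7. F7 and F10 are neighbours on their chromosome but did not share that pattern. F5, F12 and Kng1 differed by 0.05, 0.07 and 0.01.

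**Figure D3:**
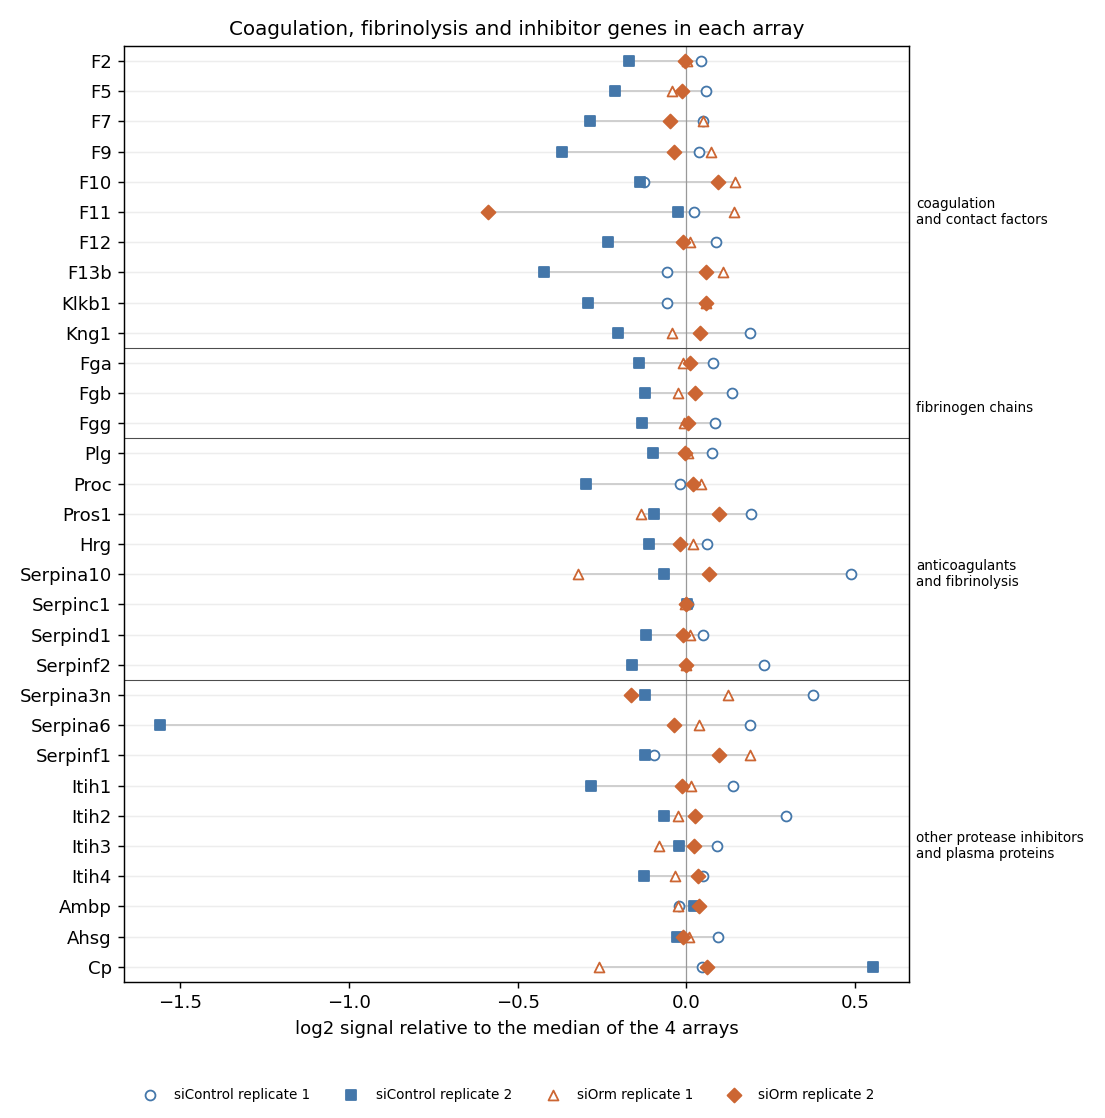
Log2 signal relative to the median of the 4 arrays (horizontal axis) for the measured genes of coagulation, fibrinolysis and protease inhibition, with 1 symbol for each array and a grey line over their range. siControl replicate 2 is lowest for 9 of the 10 coagulation and contact factors and for all 3 fibrinogen chains, and stands at -1.56 for Serpina6.

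The 3 fibrinogen chains, neighbours in the genome, were almost superimposed. Fga stood at 0.08 and -0.14 in siControl and at -0.01 and 0.01 in siOrm, Fgb at 0.13 and -0.12 against -0.02 and 0.02, and Fgg at 0.09 and -0.13 against -0.01 and 0.01. In each chain siControl replicate 1 was highest and siControl replicate 2 lowest, with both siOrm arrays within 0.03 of the median. The differences were 0.03 (95% interval -0.32 to 0.38), -0.01 (-0.37 to 0.36) and 0.02 (-0.33 to 0.37), so a change of 0.5 either way lay outside all 3 limma intervals.

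Promoters of the fibrinogen genes are shown because the chains kept 1 order over the arrays, and that of F13b because it had the largest difference among the factors. They are the 250 bases before the gene start in RefSeq, build GRCm38.p6, 5′ to 3′ on the gene's strand. Capitals mark letters that match the motif of STAT3 (TTCNNNGAA), C/EBP (TTGCNNAA) or HNF1 (GTTAATNAT), searched on both strands; these are an interleukin 6-activated factor, an acute phase factor and a hepatocyte factor.
Fga, plus strand, chr3:83025903-83026152: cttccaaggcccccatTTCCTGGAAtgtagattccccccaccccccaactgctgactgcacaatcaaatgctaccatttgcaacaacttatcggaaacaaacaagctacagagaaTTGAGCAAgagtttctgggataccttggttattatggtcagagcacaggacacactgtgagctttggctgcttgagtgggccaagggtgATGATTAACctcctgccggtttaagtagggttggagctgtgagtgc
Fgb, minus strand, chr3:83049864-83050113: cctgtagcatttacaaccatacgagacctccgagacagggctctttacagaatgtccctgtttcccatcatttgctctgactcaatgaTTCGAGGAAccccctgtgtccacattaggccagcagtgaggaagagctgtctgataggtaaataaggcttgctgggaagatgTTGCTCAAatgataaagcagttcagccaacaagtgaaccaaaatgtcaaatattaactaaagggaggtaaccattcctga
Fgg, plus strand, chr3:83007474-83007723: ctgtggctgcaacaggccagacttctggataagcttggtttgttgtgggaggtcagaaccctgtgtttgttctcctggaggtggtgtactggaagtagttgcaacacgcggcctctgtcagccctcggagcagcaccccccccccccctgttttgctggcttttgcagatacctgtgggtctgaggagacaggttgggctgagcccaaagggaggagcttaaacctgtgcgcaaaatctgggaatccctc
F13b, plus strand, chr1:139501457-139501706: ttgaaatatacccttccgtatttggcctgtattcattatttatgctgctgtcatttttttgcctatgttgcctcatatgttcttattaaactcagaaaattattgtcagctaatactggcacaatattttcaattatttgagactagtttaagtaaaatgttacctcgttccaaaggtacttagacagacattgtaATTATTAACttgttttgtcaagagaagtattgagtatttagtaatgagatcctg
In Fga the capitals are, from left to right, a STAT3, a C/EBP and an HNF1 match starting 234, 135 and 46 bases before the gene start. Fgb held a STAT3 match at 162 and a C/EBP match at 80 bases, F13b an HNF1 match at 54 bases, and Fgg none of these letters in this window.

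The same search was made for all genes in the promoter table, which held 40 of the 51 genes. HNF1 letters were in 4 of them, C4bp, Cp, F13b and Fga (10%). They were in 0.627% of the 8767 measured genes with a promoter in the table and 0.866% of all 27025 genes there. C/EBP letters were in 11 (27.5%, against 9.58% and 10.8%) and STAT3 letters in 7 (17.5%, against 7.19% and 8.13%). Those with STAT3 letters were C8a, F9, Fga, Fgb, Itih4, Masp2 and Pros1, whose differences ran from -0.07 for Pros1 to 0.18 for F9. The motifs of NF-kappaB (GGGANTTTC) and HNF4 (CAAAGTCCA) were in 0 of the 40, against 1.14% and 0.605% of the 8767 measured genes. The motifs do not overlap in the windows shown. A match describes letters only and does not show that a factor binds.

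The anticoagulant and fibrinolysis genes had a median difference of 0.00 (8 measured of 9). Proc, protein C, which inactivates factors V and VIII, was separated upwards at -0.02 and -0.30 against 0.04 and 0.02, or 0.19 (SE 0.15), and 0.05 without siControl replicate 2. Serpina10, the inhibitor of factor X that acts with protein Z, had the widest range of the list. It stood at 0.49 and -0.07 in siControl and at -0.32 and 0.07 in siOrm, or -0.34 (SE 0.24, limma adjusted p = 0.994). siControl replicate 1 was high and siOrm replicate 1 low, and the difference was -0.62 without siControl replicate 2 and -0.06 without siControl replicate 1.

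Serpinc1, antithrombin, was the most even gene of the 51, with all arrays within 0.01 of the median. It was the second gene with the siOrm pair below the siControl pair, with a difference of -0.006. Plg, the precursor of plasmin, and Hrg, which binds heparin and plasminogen, differed by 0.01 and 0.03. Serpind1, heparin cofactor II, differed by 0.03, Serpinf2, the inhibitor of plasmin, by -0.04, and Pros1, the cofactor of protein C, by -0.07. siControl replicate 1 was the highest array in 7 of the 8 genes, where it was highest for 27.3% of all genes.

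Among the other inhibitors and plasma proteins (10 measured of 10, median -0.01), Serpina6 had the largest difference of the 51. It encodes corticosteroid-binding globulin, which carries glucocorticoids in blood and which inflammation lowers. It stood at 0.19 and -1.56 in siControl and at 0.04 and -0.04 in siOrm, or 0.69 (SE 0.54, limma adjusted p = 0.994). siControl replicate 2 was far below the other arrays, and without it the difference was -0.19. Without siControl replicate 1, which leaves that array alone to stand for its group, it was 1.56 and was the 1 gene of the 51 past the test (limma adjusted p = 0.013, where 2.1% of all genes passed). Serpina6 and Serpina10 are neighbours on their chromosome and had different orders of arrays.

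Serpinf1, which encodes pigment epithelium-derived factor, a serpin that does not inhibit proteases, was separated about as evenly as C8g and F10. It stood at -0.10 and -0.12 in siControl and at 0.19 and 0.10 in siOrm, or 0.25 (SE 0.13, 95% interval -0.07 to 0.57, limma adjusted p = 0.994), and ran from 0.21 to 0.30 with each array left out. Both of its probe sets gave this order, with 0.25 and 0.26. Serpina3n, an acute phase inhibitor of chymotrypsin-like proteases, overlapped at 0.37 and -0.12 against 0.12 and -0.16, or -0.15 (SE 0.21), and -0.39 without siControl replicate 2.

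Cp, ceruloplasmin, the copper ferroxidase of plasma, was measured by 7 probe sets. Its mean stood at 0.05 and 0.55 in siControl and at -0.26 and 0.06 in siOrm, or -0.40 (SE 0.22, limma adjusted p = 0.994). In 5 of the 7 probe sets the siOrm values were all below the siControl values. The 4 of these on the step of the higher log values agreed closely, with differences of -0.26, -0.33, -0.25 and -0.36, siControl replicate 2 highest between 0.27 and 0.39, and siOrm replicate 1 lowest. The fifth, not on that step, read 2.69 in siControl replicate 2 and gave -1.81, and the remaining 2 gave 0.10 and 0.11. The median of the probe sets gave -0.31, quantile normalization -0.22, and the fit without siControl replicate 2 -0.15.

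**Figure D4:**
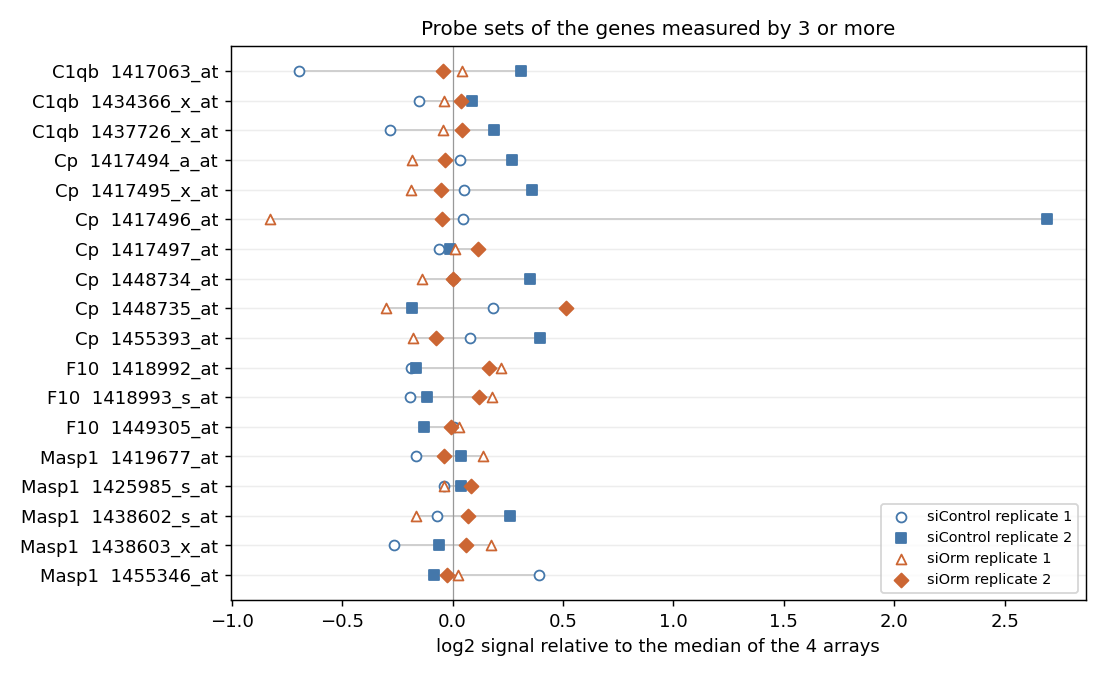
Log2 signal relative to the median of the 4 arrays (horizontal axis) in each probe set of the 4 genes measured by 3 or more, with 1 symbol for each array. In Cp, 1 probe set reads 2.69 in siControl replicate 2 while 4 others read between 0.27 and 0.39 there; in F10, 2 of the 3 separate the groups.

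The heavy chain genes of the inter-alpha-trypsin inhibitor family differed by 0.07 for Itih1, -0.11 for Itih2, -0.06 for Itih3 and 0.04 for Itih4, and Itih2 by -0.29 without siControl replicate 2. The chains of Itih1, Itih2 and Itih3 bind hyaluronan in the matrix. Itih1, Itih3 and Itih4 lie together in the genome. Ambp, which encodes the light chain bikunin, differed by 0.01 and stayed within 0.04 of the median. Ahsg, fetuin A, an inhibitor of calcification, differed by -0.03, and its neighbours Hrg and Kng1, by 0.03 and 0.01. In all, 11 groups of 2 or 3 of the genes were neighbours (starts within 200000 bases in the RefSeq gene table of GRCm38.p6). Differences stayed between -0.06 and 0.07 in the Itih group and between -0.03 and 0.03 in that of Ahsg. They ran from -0.22 to 0.23 for the pair of F11 and Klkb1 and from -0.04 to 0.25 for Serpinf2 and Serpinf1.

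Sorted by textbook behaviour in inflammation, the 11 measured positive acute phase genes of 12 listed (C9, Cfb, C4bp, Serping1, Fga, Fgb, Fgg, Serpina3n, Itih3, Itih4 and Cp) had a median difference of -0.02, with 1 separated downwards and 0 upwards, where 15.3% and 17.0% of all genes were. Their array medians were 0.08 and -0.04 for siControl against -0.05 and 0.02 for siOrm. The 5 negative acute phase genes (Ahsg, Serpina6, Itih2, Ambp and F12) had a median of 0.01 and none was separated. Their array medians were 0.09 and -0.07 for siControl against 0.01 and -0.01 for siOrm. The medians of both lists overlapped between the groups, and both were highest in siControl replicate 1.

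Over the 51 genes siControl replicate 2 was the lowest array for 30 (58.8%, against 38.9% of all genes) and siControl replicate 1 the highest for 28 (54.9%, against 27.3%). The median distance between the siControl arrays was 0.24 (0.20 over all genes) and between the siOrm arrays 0.06 (0.13 over all genes). The median difference of the 51 genes was 0.11 without siControl replicate 1 and -0.06 without siControl replicate 2. Hepatocyte markers (10 measured of 12) had array medians of -0.02, -0.05, 0.02 and 0.02 in the order siControl replicates 1 and 2 and siOrm replicates 1 and 2. In that order stellate cell markers (8 of 9) had medians of -0.26, 0.46, -0.06 and 0.19, and endothelial markers (8 of 9) -0.19, 0.24, -0.02 and -0.02. Adipocyte markers (4 of 8) had 0.02, 0.36, 0.07 and -0.13, and lymphocyte markers (7 of 8) 0.23, -0.19, 0.03 and -0.03. Neutrophil markers (9 of 11), S100a8 and S100a9 included, had 0.10, 0.08, -0.09 and -0.02, cholangiocyte markers (4 of 5) -0.02, -0.03, -0.03 and 0.22, and platelet markers (4 of 5) -0.08, 0.03, -0.08 and 0.13. The part of cell content in the low hepatocyte-made genes of siControl replicate 2 was not tested.

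**Figure D5:**
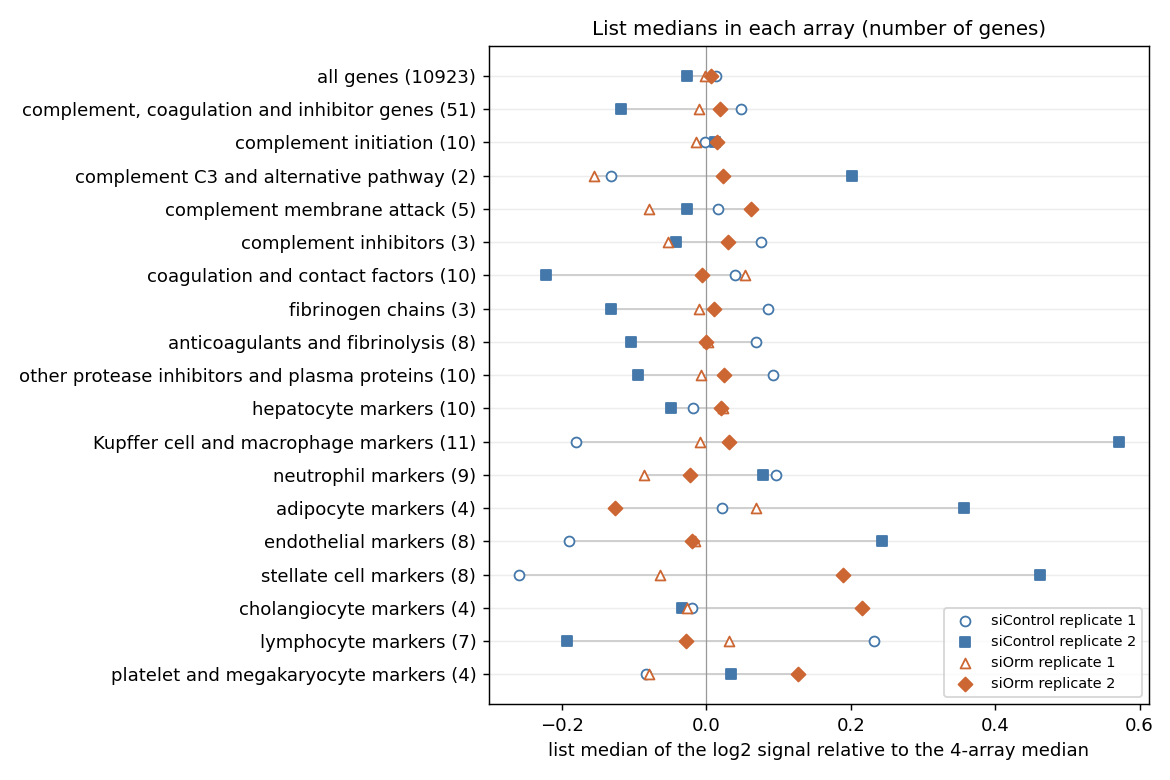
Median of the log2 signal relative to the median of the 4 arrays (horizontal axis) over the genes of each list, with 1 symbol for each array; the number of measured genes is in brackets. In siControl replicate 2 the coagulation and contact factors are at -0.22 and the macrophage markers at 0.57.

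Other genes of these pathways were taken from 3 lists that hold none of the 51. Those named were picked as the 3 of smallest limma p in each list, so they do not represent it. None of their genes passed the test over all genes (limma adjusted p of at least 0.994 for those named here). Of 17 complement genes measured of 30, 2 were higher and 0 lower at an unadjusted p under 0.05, where 2.18% of all genes were higher and 2.58% lower. Cfhr2, a relative of factor H, stood at -0.09 and -0.44 in siControl and at 0.18 and 0.22 in siOrm, or 0.47 (SE 0.16), and 0.29 without siControl replicate 2. Cd59a, which blocks pore assembly on the body's own cells, stood at -0.18 and -0.17 against 0.15 and 0.15, or 0.33 (SE 0.12), and its arrays within a group were 0.01 or less apart. Vsig4, a complement receptor of Kupffer cells, stood at -0.10 and 1.06 against 0.10 and -0.41, or -0.63, and at -0.05 without siControl replicate 2.

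Of 27 coagulation and fibrinolysis genes measured of 36, 2 were higher and 1 lower at that level. F3, tissue factor, which starts clotting, stood at -0.17 and -0.18 in siControl and at 0.17 and 0.66 in siOrm, or 0.59 (SE 0.19), and 0.35 without siOrm replicate 2. Vwf, von Willebrand factor of endothelial cells and platelets, stood at -0.15 and -0.20 against 0.15 and 0.25, or 0.37 (SE 0.13). F13a1, the catalytic subunit of factor XIII, which myeloid cells make, stood at 0.23 and 1.28 against -0.23 and -0.27, or -1.0 (SE 0.34), and at -0.48 without siControl replicate 2. It ran against F13b, its partner in plasma, which was higher in both siOrm arrays.

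Of 23 protease inhibitor genes measured of 35, 1 was higher and 0 lower. Serpinb1a, an inhibitor of neutrophil proteases, stood at -0.07 and -0.69 against 0.56 and 0.07, or 0.70 (SE 0.27), and 0.39 without siControl replicate 2. A2m, alpha-2-macroglobulin, stood at 0.06 and 0.19 against -0.06 and -0.29, or -0.30, and Cstb, cystatin B, at 0.03 and 0.69 against -0.09 and -0.03, or -0.42. A2m was at -0.19 without siOrm replicate 2, and Cstb at -0.09 without siControl replicate 2. The median differences of the 3 lists were 0.05, 0.02 and -0.05.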

How the data were processed

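The deposited table holds log values, taken here as log2, for 18852 probe sets and 4 arrays; the authors' values are centred, with every row median within 4.8e-07 of 0. The array was the Affymetrix GeneChip Mouse Genome 430A 2.0, per the series' design text. The labels' protocols instead describe another maker's labelling and RNA of cultured cells, which leaves the laboratory steps unsure. How the signals were computed and normalized, and the log base, is not given in the sources used here.

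Control probe sets were left out. The 17209 probe sets with 1 symbol gave 10923 genes (564 had several symbols, 1044 none). Groups were compared with limma 3.58.1 in R 4.3.3 (lmFit, eBayes, constant variance prior with 3.6 degrees of freedom beside 2 residual ones), two-sided, adjusted over all genes by Benjamini-Hochberg. On simulated data the fit recovered 65.1% of log2 changes of 1 and 97.3% of log2 changes of 2. The simulated errors were independent between genes, so a shift shared by many genes of an array was not covered. The number of arrays limits the precision.

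The genes and lists were chosen with earlier results of these data known. Values in every array are given for genes with an unadjusted p under 0.05 and for the 2 largest differences of each role list. They are also given for the fibrinogen and C1q chains, and for the 3 genes of smallest limma p in each list of other pathway genes. Other genes are by range or difference, some with array values added after these were seen. There were 12 alternatives.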

Additional observations from a re-analysis of the deposited data

How the results depend on the processing

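No alternative put any of the 51 genes past the adjusted threshold except the fit without siControl replicate 1, where Serpina6 passed. Over all genes the count past it was 0 in the main fit (520 at an unadjusted p under 0.05), 11 with a variance prior that follows the mean, and between 0 and 229 with 1 array left out. Because the values are centred, the mean that this variance prior follows is not a signal level. The median difference of the 51 genes was -0.062 to 0.11 with 1 array left out, and within the spread between replicates (SD 0.085) under the other alternatives. With 1 array left out, 4 to 29 of the 51 genes had the siOrm arrays below and 10 to 30 above, where fewer arrays make separation easier and 23.5% to 36.8% and 29.2% to 44.6% of all genes did so.

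Under other scalings, priors, probe set rules and the block, 386 differences of 49 genes were recomputed. Many of these could not move, since the priors and the block alter only the error of a difference. A gene with 1 probe set also keeps its difference under every probe set rule that retains it. Of the 386, 3 changed sign, all after quantile normalization: Dcn at 0.096, Col3a1 at 0.034 and Cd79a at -0.054. The cause was not tested. With 1 array left out, 29 of 196 did, in 20 genes, whose lowest and highest values were -0.0068 to 0.39 for Mbl1, -0.56 to 0.22 for C1qc, -0.21 to 0.28 for Cfp, -0.094 to 0.017 for Serping1, -0.075 to 0.15 for Cfi, -0.080 to 0.14 for Fga, -0.086 to 0.13 for Fgg, -0.19 to 1.56 for Serpina6, -0.13 to 0.12 for Fgb, -0.45 to 0.48 for C1qa, -0.19 to 0.38 for C1qb, -0.20 to 0.31 for Hnf4a, -0.70 to 0.12 for Fabp4, -0.41 to 0.016 for Stab1, -0.78 to 0.53 for Dcn, -0.89 to 0.34 for Col3a1, -1.03 to 0.41 for Ptprc, -0.26 to 0.31 for Cd79a, -0.015 to 0.74 for Ppbp and -0.030 to 0.43 for Itga2b. The replicate numbers of the titles were not shown to pair the arrays (correlation of deviations 0.132); with the replicate block 0 genes passed. A further setting dropped the probe sets whose names mark several transcripts or possible shared sequence. With it 44 of the 51 genes stayed, C8g not among them, and 0 had an unadjusted p under 0.05 (limma). The centred values hide dim and saturated probe sets.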
